A study of Homo sapiens with 12 samples.

Results

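The 50 genes described here encode the machinery that copies DNA and the regulators that take a cell from G1 into S phase. They were chosen by name, from a list of gene symbols, and that rule uses no measured value. The list itself was drawn up with earlier results of these data known. All 50 were found in both deposited tables, out of 13588 genes listed in at least 1 of them. They fall into 8 roles, from origin licensing to the supply of histones and deoxynucleotides. The cells were MCF-12A, a non-tumour human breast epithelial line that is long established in culture. The libraries came from cells given TGFbeta1, a secreted cytokine that slows the division of many epithelial cells, and from control cells. There were 6 libraries per group, deposited as 2 tables: a first set with replicates 1 to 3 of both groups, and a second set with replicates 4 to 6. The labels give no dose, no duration and no description of the control beyond its name, and they do not say whether replicates were separate cultures, so the p-values cover no more than the spread among these libraries, part of which may be technical.

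Replication begins when the origin recognition complex, CDC6 and CDT1 load the MCM2 to MCM7 ring onto DNA in G1. In S phase CDC45 and the GINS complex turn that ring into a moving helicase, primase and the polymerases start and extend the new strands, and the PCNA clamp, set in place by replication factor C, holds the polymerases on DNA. Many of these genes are transcribed when E2F factors are released from the retinoblastoma protein at the G1/S boundary, a step that TGFbeta signalling is known to hold back in epithelial cells.

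The starts of these genes were searched for 8 letters that E2F factors are known to bind, TTTNGCGC, on both strands. RefSeq promoter windows of 300 bases (250 before to 50 after the annotated start, GRCh38.p14) were found for 43 of the 50 genes. The letters occurred in 18 of the 43 genes (41.9%), in 593 of all 27305 genes of the promoter table (2.17%) and in 313 of the 8718 genes that were tested in either set and had a window (3.59%). A match is only a stretch of letters, and matches on opposite strands can cover the same bases because GCGC reads the same on both. By role the share was highest for origin licensing, with 7 of 8 genes, and it was 0 of 3 for Okazaki fragment maturation. The windows of CDT1, MCM2, MCM6 and POLA1 are shown because these were the 4 genes with the letters among those whose RNA fell with TGFbeta1 in the first set, and that of POLE2 because its response differed between the sets. Each is written 5′ to 3′ on the strand of the gene, and capitals mark the bases of every match.

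CDT1, chr16:88803539-88803838, plus strand: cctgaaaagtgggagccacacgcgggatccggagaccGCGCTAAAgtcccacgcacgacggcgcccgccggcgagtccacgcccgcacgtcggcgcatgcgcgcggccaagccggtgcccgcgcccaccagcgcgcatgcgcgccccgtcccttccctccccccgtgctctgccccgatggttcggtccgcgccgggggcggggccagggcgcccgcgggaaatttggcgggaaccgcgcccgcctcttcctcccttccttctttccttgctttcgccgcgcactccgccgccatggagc

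MCM2, chr3:127598161-127598460, plus strand: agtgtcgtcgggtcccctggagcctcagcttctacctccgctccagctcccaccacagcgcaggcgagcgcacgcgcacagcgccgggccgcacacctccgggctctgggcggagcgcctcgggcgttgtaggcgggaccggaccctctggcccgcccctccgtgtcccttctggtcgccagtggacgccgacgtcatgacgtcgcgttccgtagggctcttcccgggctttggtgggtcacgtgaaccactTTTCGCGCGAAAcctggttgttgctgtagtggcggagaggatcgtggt

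MCM6, chr2:135876394-135876693, minus strand: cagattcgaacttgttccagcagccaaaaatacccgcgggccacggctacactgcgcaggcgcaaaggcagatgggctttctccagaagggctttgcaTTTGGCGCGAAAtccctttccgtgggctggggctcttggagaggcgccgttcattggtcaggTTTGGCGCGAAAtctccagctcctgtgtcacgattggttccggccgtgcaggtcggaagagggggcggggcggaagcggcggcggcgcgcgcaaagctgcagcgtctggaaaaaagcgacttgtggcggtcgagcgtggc

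POLA1, chrX:24693668-24693967, plus strand: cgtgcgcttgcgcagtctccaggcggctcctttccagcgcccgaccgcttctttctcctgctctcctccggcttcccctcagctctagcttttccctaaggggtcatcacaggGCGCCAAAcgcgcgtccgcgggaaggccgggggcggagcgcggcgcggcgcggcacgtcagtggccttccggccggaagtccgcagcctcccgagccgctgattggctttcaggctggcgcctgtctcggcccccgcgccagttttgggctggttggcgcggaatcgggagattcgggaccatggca

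POLE2, chr14:49688165-49688464, minus strand: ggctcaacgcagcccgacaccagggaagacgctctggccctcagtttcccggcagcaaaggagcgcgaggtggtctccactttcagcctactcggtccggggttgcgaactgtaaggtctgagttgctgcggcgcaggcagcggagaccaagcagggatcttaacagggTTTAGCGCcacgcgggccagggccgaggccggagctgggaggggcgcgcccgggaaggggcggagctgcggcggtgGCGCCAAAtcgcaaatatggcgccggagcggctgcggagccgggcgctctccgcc

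MCM6 has 2 sites of 12 bases, each matched on both strands, and MCM2 has 1 such site just after its start. CDT1 and POLA1 each have a single match on the opposite strand. POLE2 has 1 match on each strand, at separate places. Over all 18 genes there were 23 matches, whose distance from the start ran from -213 to 9 bases with a median of -44. The letters were present in 4 of 12 genes that fell in the first set (33.3%) and in 14 of 31 that did not pass the test there (45.2%). CCAAT occurred in 26 of the 43 genes (60.5%), against 39.7% of all genes of the promoter table and 43.7% of tested ones. TTTGAA, the core of the element that marks many genes of G2 and mitosis, occurred in 2 of the 43 genes (4.65%), against 18.2% of all genes and 13.5% of tested ones.

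**Figure D1:**
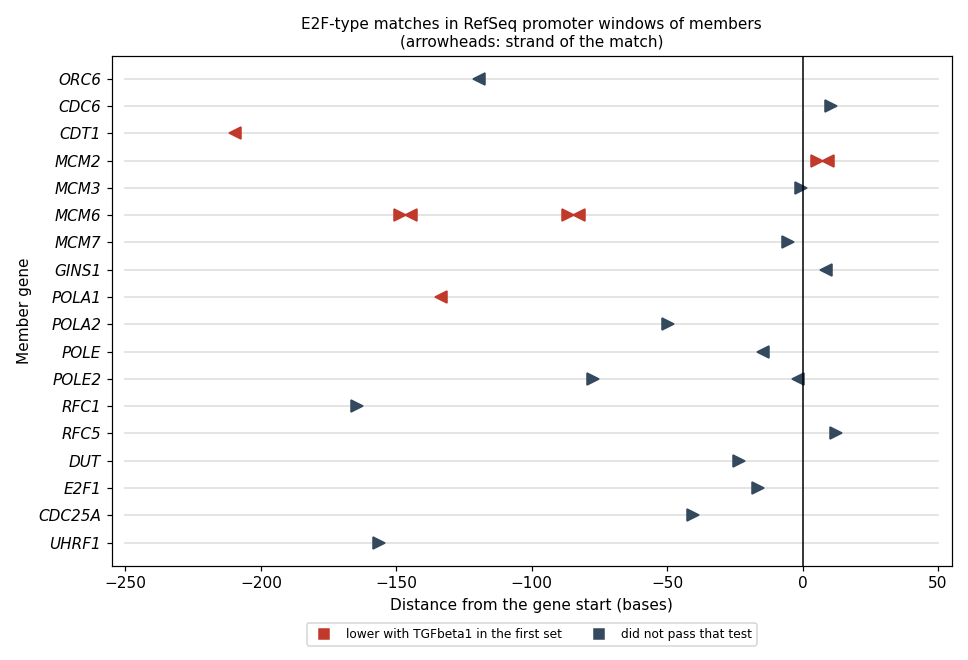
Position of TTTNGCGC matches in the promoter windows of the 18 genes that hold one. The horizontal axis gives distance from the annotated start in bases, each arrowhead is 1 match and points along its strand, and red marks genes that fell with TGFbeta1 in the first set. The matches lie between -213 and 9 bases from the start.

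Levels are in FPKM, a fragment count divided by transcript length and library size, summed over the listed transcripts of each gene. Depth is unknown because no counts were used. Library totals of FPKM were 291801.6 to 318269.5 (first set) and 338968.0 to 358432.6 (second set). The 50 genes passed the filter of a mean of 1 FPKM in both sets, with gene means of 1.89 to 122 FPKM (median 18.5) for the first and 2.09 to 114 FPKM (median 13.4) for the second. The treatment was checked on 4 genes that TGFbeta signalling is known to induce. SMAD7, ITGB6, TGFBI and FN1 were all higher with TGFbeta1 in the first set, with SMAD7 at 4.35 ± 0.588 FPKM in TGFbeta1 libraries and 1.22 ± 0.189 FPKM in controls (SD, n = 3 each). None of the 4 passed the test in the second set, where SMAD7 was at 0.909 ± 0.17 FPKM in libraries labelled TGFbeta1 and 1.12 ± 0.0893 FPKM in controls, and TGFBI and FN1 were lower in every library labelled TGFbeta1 than in any control. The second-set groups are therefore named by their labels below. The epithelial and basal markers KRT5, KRT14, KRT17, TP63, ITGA6, EPCAM and CDH1 were listed in every library, and PTPRC, CD3E, PECAM1 and CDH5, which mark leukocytes and endothelium, were listed in none.

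With TGFbeta1 in the first set, 14 of the 50 replication genes fell and none rose (limma on log2(FPKM + 1), Benjamini-Hochberg adjusted p under 0.05 over all genes tested). Falls were called for 11.9% and rises for 9.00% of all 10454 genes tested, so the 14 of 50 (28.0%) are to be read beside calls that were common throughout. The 14 were CDT1, MCM2, MCM4, MCM5, MCM6, MCM10, CDC45, POLA1, PRIM1, POLD2, PCNA, RFC2, RFC3 and CHAF1B, with TGFbeta1 means at 61.7% to 81.4% of the control means. The median log2 change of the 50 was -0.23, against -0.06 (-0.055) for all genes tested, and 39 of 50 (78.0%) had a negative change, against 56.4% of all genes. Every TGFbeta1 library lay below every control for 22 of the 50 and above for none, while over all genes 25.1% lay wholly below and 18.2% wholly above. The count of falls was 8 without TGFbeta1 replicate 1, TGFbeta1 replicate 2 or control replicate 2, 9 without control replicate 1, 10 without control replicate 3 and 11 without TGFbeta1 replicate 3. Scaling each library to an equal sum left 10 falls and no rise among the 50, while over all genes it turned the split from 941 higher and 1245 lower to 1164 higher and 855 lower. The median of ratios gave 1048 higher and 1010 lower over all genes and quantile normalisation 1037 and 971, with 12 and 11 falls among the 50. In a bulk culture, fewer cells in S phase and less RNA per cell cannot be told apart.

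No replication gene passed the same test in the second set. There limma called 34 of 10579 genes (0.321%), 18 higher (0.170%) and 16 lower (0.151%). Among the 50, 5 had an unadjusted p under 0.05 (POLD1, POLE2, RFC4, LIG1 and E2F1), where 11.2% of all genes tested did. In the authors' deposited table, of 136 transcripts of these genes, 0 had q under 0.05 and 7 (5.15%) had p under 0.05, beside 28 (0.0959%) and 2042 (6.99%) of all 29204 transcripts. The median change was 0.03 against 0.00 for all genes, with 21 negative and 29 positive. Libraries labelled TGFbeta1 lay wholly below the controls for 3 genes and wholly above for 5, beside 9.62% and 9.71% of all genes. A p that misses the threshold does not show that values did not differ, and the intervals are given below where a change was large.

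The difference itself, the second-set change minus the first-set change, passed the test for 10 of the 50 and was positive in each (limma over all 12 libraries, 10548 genes tested, 13.6% called, 7.56% positive and 6.06% negative). These were CDT1, MCM4, MCM5, MCM6, MCM10, CDC45, POLA1, PCNA and RFC3, all among the 14 that fell in the first set, and POLE2. Over the 50 genes the difference was positive in 36 and negative in 14, while over all 10548 genes tested it was positive in 5829. Only MCM6 and POLE2 kept this call in every alternative in which each was tested. With 1 library left out, 3 to 7 of the 10 kept the call: 7 without TGFbeta1 replicate 3, and 6 without control replicate 1 or control replicate 2. There were 5 without control replicate 3, TGFbeta1 replicate 4, TGFbeta1 replicate 6, control replicate 5 or control replicate 6, 4 without TGFbeta1 replicate 1, TGFbeta1 replicate 2 or TGFbeta1 replicate 5, and 3 without control replicate 4. A gene outside the 10 was called in 5 of these fits: CDC6 without TGFbeta1 replicate 3, RFC4 without control replicate 3, RNASEH2A without TGFbeta1 replicate 4 and, with negative differences, GINS3 without control replicate 2 and LIG1 without TGFbeta1 replicate 2. With an equal sum per library 2 calls were left, with quantile normalisation 3, and with the median of ratios 6. Equal sums also gave 522 positive and 771 negative differences over all genes, against 797 and 639 as deposited.

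**Figure D2:**
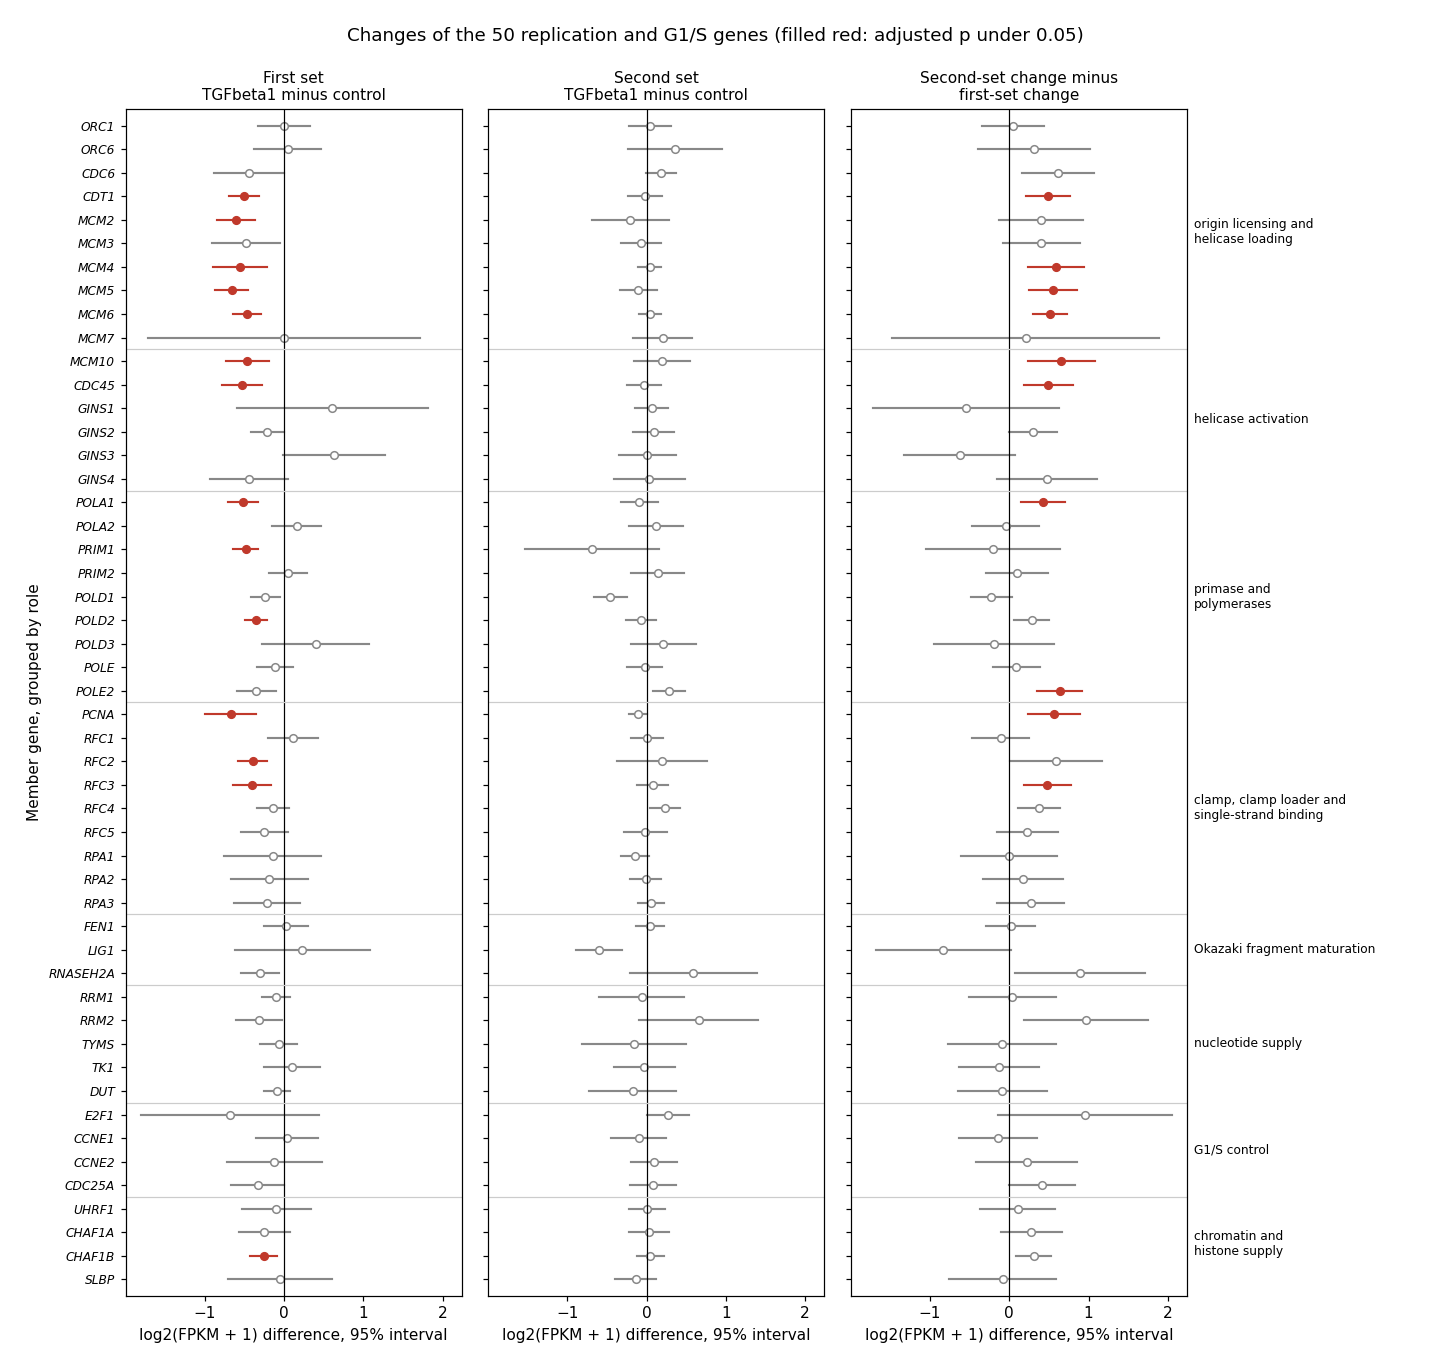
Log2 change of each of the 50 genes, grouped by role, in the first set (left), in the second set (middle), and their difference (right). Points are limma estimates on the log2(FPKM + 1) scale with 95% intervals, and filled red points passed the test. The 14 red points of the first set all lie below 0, the second set has none, and the 10 red differences all lie above 0.

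Summed over the 50 genes, FPKM was 1120.6, 1091.0 and 1193.2 in TGFbeta1 libraries of the first set, against 1325.3, 1330.8 and 1553.5 in controls. These sums were 0.381%, 0.373% and 0.409% of all listed FPKM with TGFbeta1 and 0.430%, 0.432% and 0.488% in controls, without overlap. In the second set the sums were 899.6, 939.9 and 965.1 in libraries labelled TGFbeta1 and 910.1, 984.2 and 910.0 in controls, and the groups overlapped.

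The licensing genes held the most falls, 5 of 10, with a median first-set change of -0.48 and second-set change of 0.04. MCM5, a subunit of the helicase ring (chr22:35796056-35821423, plus strand, hg19), had 13.3, 14.9 and 13.4 FPKM in TGFbeta1 libraries of the first set, against 21.3, 22.0 and 24.1 FPKM in controls. The groups did not overlap, and the means were 13.9 ± 0.885 and 22.5 ± 1.49 FPKM (SD, n = 3 each), a log2 change of -0.66 with SE 0.08 and a limma adjusted p of 0.00462. The second set had 12.3, 13.9 and 11.6 FPKM in libraries labelled TGFbeta1 and 15.0, 13.2 and 12.9 FPKM in controls, with overlapping groups and a change of -0.11. MCM2, the ring subunit that also handles histones at the fork, had 34.8, 33.2 and 33.7 FPKM with TGFbeta1 in the first set, against 47.4, 50.05 and 59.5 FPKM in controls. All TGFbeta1 libraries were lower, by 0.61 on the log2 scale with SE 0.10 (limma adjusted p = 0.0107). Second-set values of MCM2 were 17.8, 24.3 and 18.8 FPKM in libraries labelled TGFbeta1 and 25.3, 28.2 and 17.8 FPKM in controls, and the groups overlapped. MCM2 overlaps TPRA1 on the other strand, and the labels do not give strandedness, so reads of the 2 genes may not have been told apart. The same caveat holds in both sets for MCM7 (AP4M1), GINS2 (GSE1), RFC4 (EIF4A2) and RPA3 (UMAD1). It also holds in both for FEN1 (TMEM258), TYMS (ENOSF1) and CCNE2 (INTS8). Among genes listed for the first set only, CHAF1A overlaps UBXN6, CCNE2 overlaps NDUFAF6 and FEN1 overlaps FADS2 on its own strand.

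MCM6, another ring subunit (chr2:136597196-136633996, minus strand, hg19), had the smallest standard error of the licensing genes in the first set. It had 21.9, 22.5 and 23.1 FPKM with TGFbeta1 and 30.4, 30.6 and 33.8 FPKM in controls of the first set, a change of -0.47 with SE 0.07 (limma adjusted p = 0.00845). Its second-set values were 24.5, 24.6 and 24.5 FPKM in libraries labelled TGFbeta1 and 24.4, 24.6 and 22.5 FPKM in controls, a change of 0.04. The changes differed by 0.51 (SE 0.10, limma adjusted p = 0.00549). MCM6 has 1 listed transcript, so no sum over isoforms is involved, and its promoter window is the one with 4 matches. MCM2, MCM5 and MCM6, together with PRIM1, kept the first-set call in all 16 alternatives, each left-out library included.

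MCM4, the highest licensing gene by level, had 54.0, 64.6 and 71.0 FPKM with TGFbeta1 in the first set, against 93.8, 81.7 and 104 FPKM in controls. The groups did not overlap and the log2 change was -0.55 with SE 0.14 (limma adjusted p = 0.0397). Without TGFbeta1 replicate 1, TGFbeta1 replicate 2, control replicate 1 or control replicate 3 the adjusted p was 0.09, 0.0983, 0.107 and 0.0899, and equal sums or quantile normalisation also ended the call. The second set had 60.9, 56.7 and 62.0 FPKM in libraries labelled TGFbeta1 and 58.1, 60.5 and 56.3 FPKM in controls. CDT1, the loading factor that brings MCM rings to origins (chr16:88869621-88875666, plus strand, hg19), had 19.9, 21.4 and 19.9 FPKM with TGFbeta1 in the first set, against 28.5, 28.0 and 31.7 FPKM in controls. It was lower in all 3 TGFbeta1 libraries, by 0.51 on the log2 scale with SE 0.08 (limma adjusted p = 0.00891), and it kept the call with any 1 library left out. The second-set values of CDT1 were 17.2, 20.9 and 20.1 FPKM in libraries labelled TGFbeta1 and 19.8, 18.6 and 20.6 FPKM in controls, so the groups overlapped.

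The other licensing genes did not pass. MCM3 had 40.8, 31.8 and 45.6 FPKM with TGFbeta1 in the first set, below all controls at 47.7, 53.1 and 64.8 FPKM, but its spread left a limma adjusted p of 0.111. CDC6, the ATPase that recruits CDT1 and the ring, was also below all controls, with 8.29, 6.23 and 10.2 FPKM with TGFbeta1 and 10.6, 10.7 and 12.8 FPKM in controls (limma adjusted p = 0.145). MCM7 could not be read as a change, because replicate 3 of both groups stood far above the rest. It had 34.4, 31.7 and 82.7 FPKM with TGFbeta1 and 28.0, 26.7 and 120.4 FPKM in controls, and the transcript MCM7-001 carried that gap, with 19.7, 15.4 and 75.2 FPKM with TGFbeta1 and 14.3, 17.1 and 115.9 FPKM in controls. ORC6, a small subunit of the origin recognition complex, had 21.3, 21.4 and 16.3 FPKM with TGFbeta1 and 20.2, 21.7 and 15.3 FPKM in controls. Its second-set change, 0.36, was among the 3 most positive there, with 6.67, 4.39 and 6.23 FPKM in libraries labelled TGFbeta1 and 5.22, 2.78 and 5.06 FPKM in controls (limma adjusted p = 0.643). ORC1, the ATPase of that complex, averaged 9.46 ± 0.148 FPKM with TGFbeta1 and 9.56 ± 1.79 FPKM in controls of the first set (SD, n = 3 each).

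The ring subunits were not equal in level, although FPKM is scaled by length. MCM5 was the lowest of MCM2 to MCM7 in all 12 libraries, and MCM4 or MCM7 the highest. MCM2 to MCM6 together summed to 164.8, 166.9 and 186.7 FPKM with TGFbeta1 in the first set, against 240.5, 237.5 and 285.8 FPKM in controls. The corresponding second-set sums were 159.4, 162.8 and 162.0 FPKM in libraries labelled TGFbeta1 and 166.5, 180.8 and 151.5 FPKM in controls, and these overlapped.

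**Figure D3:**
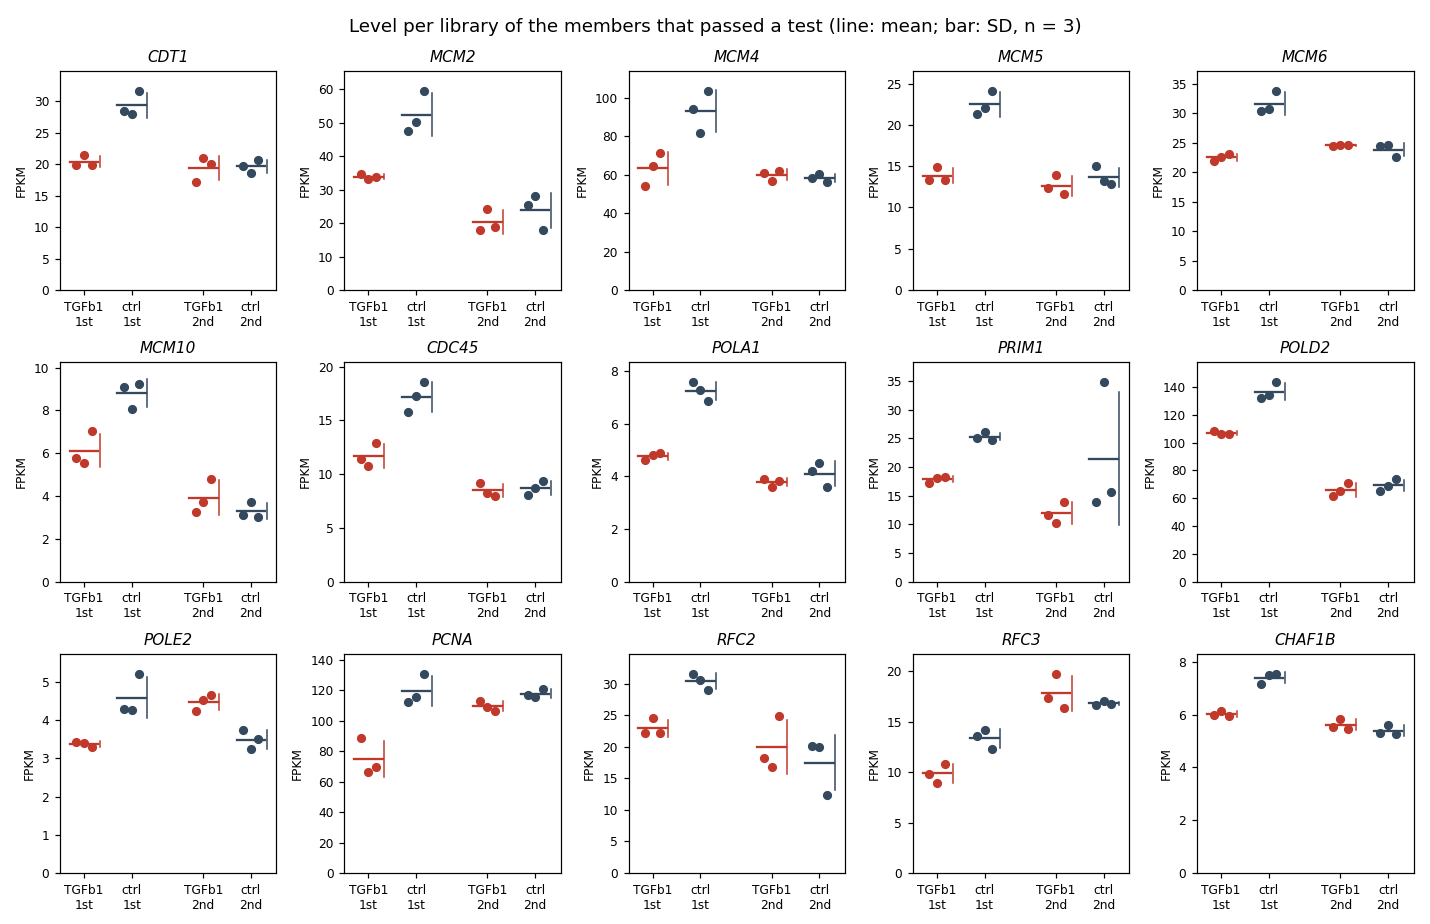
FPKM in each library for the 14 genes that fell in the first set and for POLE2. Points are libraries, horizontal lines are group means and vertical bars 1 SD (n = 3), with TGFbeta1 left of control in each set. The TGFbeta1 points of the first set lie below all control points of that set in each of the 15 panels.

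Of the 6 genes that activate the helicase, CDC45 and MCM10 fell in the first set. CDC45, which joins the ring to form the moving helicase, had 11.4, 10.7 and 12.9 FPKM with TGFbeta1, against 15.8, 17.3 and 18.5 FPKM in controls. No libraries overlapped, and the change was -0.52 with SE 0.10 (limma adjusted p = 0.0193), though the adjusted p was 0.0663, 0.0631 and 0.0622 without TGFbeta1 replicate 1, TGFbeta1 replicate 2 or control replicate 2. Summed only over transcripts listed in both tables its change was -1.32 (-1.325, limma adjusted p = 0.0905). That sum leaves out CDC45-001, listed only for the first set, at 7.93, 5.52 and 0 FPKM with TGFbeta1 and 0 FPKM in every control. CDC45 in the second set had 9.19, 8.28 and 7.95 FPKM in libraries labelled TGFbeta1 and 8.02, 8.69 and 9.34 FPKM in controls. MCM10, a scaffold needed to start unwinding, had 5.80, 5.55 and 7.02 FPKM with TGFbeta1 and 9.10, 8.06 and 9.26 FPKM in controls of the first set. It was lower in all 3 TGFbeta1 libraries, by 0.46 on the log2 scale with SE 0.11 (limma adjusted p = 0.0357). Its adjusted p was 0.105, 0.104, 0.104, 0.0593 and 0.0834 without TGFbeta1 replicate 1, TGFbeta1 replicate 2, control replicate 1, control replicate 2 or control replicate 3, and 0.0614 with an equal sum per library. The second set had 3.25, 3.71 and 4.82 FPKM in libraries labelled TGFbeta1 and 3.10, 3.72 and 3.04 FPKM in controls, with 1 library labelled TGFbeta1 above the rest.

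The 4 GINS genes, which encode the ring-shaped partner of CDC45, differed in the sign of their changes. GINS3 and GINS1 had the 2 most positive first-set changes of the 50, 0.63 and 0.61, and neither passed. GINS3 had 6.96, 6.22 and 6.36 FPKM with TGFbeta1 and 2.94, 6.29 and 2.96 FPKM in controls, so control replicate 2 alone reached the TGFbeta1 level. Without that library GINS3 passed with a change of 0.93 (limma adjusted p = 0.00782). GINS1 had 2.59, 10.4 and 2.93 FPKM with TGFbeta1 and 1.79, 2.49 and 3.64 FPKM in controls, and without TGFbeta1 replicate 2 its change was 0.08. The second-set values of GINS1 were 9.06, 7.79 and 8.69 FPKM in libraries labelled TGFbeta1 and 7.71, 7.89 and 8.71 FPKM in controls. Those of GINS3 were 5.95, 5.34 and 4.30 FPKM in libraries labelled TGFbeta1 and 5.72, 5.52 and 4.25 FPKM in controls, and for both genes the groups overlapped. GINS2 and GINS4 had first-set changes of -0.21 and -0.44 (limma adjusted p = 0.140 and 0.178).

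Of the 9 primase and polymerase genes, POLA1, PRIM1 and POLD2 fell in the first set. POLA1, the catalytic subunit of the polymerase that extends primers (chrX:24712036-25015103, plus strand, hg19), had 4.61, 4.81 and 4.88 FPKM with TGFbeta1, against 7.58, 7.29 and 6.86 FPKM in controls. The spread within groups was small beside the gap, and the change was -0.51 with SE 0.07 (limma adjusted p = 0.00751). Second-set values of POLA1 were 3.90, 3.61 and 3.81 FPKM in libraries labelled TGFbeta1 and 4.19, 4.51 and 3.58 FPKM in controls. PRIM1, the primase subunit that makes the RNA primer (chr12:57125406-57146119, minus strand, hg19), had 17.2, 18.0 and 18.2 FPKM with TGFbeta1 in the first set, against 25.1, 26.0 and 24.7 FPKM in controls. The groups were well apart, by -0.48 with SE 0.06 (limma adjusted p = 0.0052). Its second-set change was the most negative of the 50, -0.69 with an interval from -1.54 to 0.16, and it rested on 1 control. PRIM1 had 11.6, 10.3 and 14.0 FPKM in libraries labelled TGFbeta1 and 13.9, 34.8 and 15.6 FPKM in controls, where the transcript PRIM1-206 was at 24.5 FPKM in control replicate 5 and between 2.49 and 5.41 FPKM in the other second-set libraries. Without control replicate 5 the change was -0.29. Among genes listed for the first set, PRIM1 overlaps HSD17B6 on the other strand and NACA on its own, so its reads may be shared. No gene overlapping PRIM1 is listed for the second set.

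POLD2, a regulatory subunit of polymerase delta and the highest gene of this role, had 108, 106 and 106 FPKM with TGFbeta1 in the first set, against 132, 134 and 143 FPKM in controls. It fell by 0.35 on the log2 scale with SE 0.06 (limma adjusted p = 0.0101) and kept the call with any 1 library left out. The second-set values were 61.5, 65.2 and 70.9 FPKM in libraries labelled TGFbeta1 and 65.2, 68.8 and 73.5 FPKM in controls, with overlap. POLD1, the catalytic subunit of the same polymerase, was lower in every TGFbeta1 library than in any control in both sets and passed in neither. It had 25.0, 25.2 and 24.3 FPKM with TGFbeta1 and 29.3, 27.5 and 31.5 FPKM in controls of the first set (limma adjusted p = 0.0759). In the second set it had 9.47, 9.92 and 11.4 FPKM in libraries labelled TGFbeta1 and 13.9, 14.8 and 14.7 FPKM in controls, a change of -0.46 with an interval from -0.67 to -0.25 (limma unadjusted p = 0.00178, adjusted p = 0.143). With transcripts listed in both tables that change was 0.09 (0.093) and did not pass either (limma adjusted p = 0.938). POLD3, an accessory subunit, had 5.95, 5.07 and 5.33 FPKM with TGFbeta1 and 3.24, 6.41 and 2.68 FPKM in controls of the first set, the third most positive change at 0.40. As with GINS3, control replicate 2 stood apart, and without it POLD3 passed with a change of 0.70 (limma adjusted p = 0.0275). POLD3 in the second set had 6.55, 5.82 and 5.78 FPKM in libraries labelled TGFbeta1 and 5.45, 3.80 and 6.28 FPKM in controls.

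POLE2, a subunit of polymerase epsilon, had changes of opposite sign in the sets, and neither passed. It had 3.44, 3.41 and 3.30 FPKM with TGFbeta1 in the first set, against 4.30, 4.26 and 5.22 FPKM in controls. In the second set it had 4.25, 4.54 and 4.65 FPKM in libraries labelled TGFbeta1, against 3.74, 3.24 and 3.51 FPKM in controls. The groups did not overlap in either set, with changes of -0.35 (limma adjusted p = 0.0572) and 0.29 (limma adjusted p = 0.303), and the changes differed by 0.63 with SE 0.13 (limma adjusted p = 0.00833). POLA2, PRIM2 and POLE, the remaining subunits, had first-set changes between -0.12 and 0.16 and second-set changes between -0.03 and 0.14.

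PCNA, the sliding clamp (chr20:5095599-5107272, minus strand, hg19), had the most negative change of the called genes on the log2(FPKM + 1) scale, at 62.8% of the control mean, while MCM5 was at 61.7%. It had 88.6, 66.6 and 69.8 FPKM with TGFbeta1 in the first set, against 112, 115 and 131 FPKM in controls, or 75.0 ± 11.9 FPKM and 120 ± 10.0 FPKM (SD, n = 3 each). The change was -0.67 with SE 0.13 (limma adjusted p = 0.019). The adjusted p was 0.06, 0.0622, 0.0548 and 0.0502 without TGFbeta1 replicate 2, TGFbeta1 replicate 3, control replicate 2 or control replicate 3. The second set had PCNA at 113, 109 and 106 FPKM in libraries labelled TGFbeta1 and 117, 115 and 121 FPKM in controls, again without overlap but with a change of -0.11 (limma adjusted p = 0.487). RFC2 and RFC3, small subunits of the loader that opens the clamp, fell in the first set. RFC2 had 22.1, 24.5 and 22.1 FPKM with TGFbeta1 and 31.6, 30.5 and 29.0 FPKM in controls, a change of -0.39 with SE 0.07 (limma adjusted p = 0.0178). That call was lost without TGFbeta1 replicate 1, TGFbeta1 replicate 3, control replicate 1 or control replicate 2, at adjusted p of 0.0643, 0.0562, 0.0621 and 0.0583.

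RFC3 had 9.82, 8.94 and 10.8 FPKM with TGFbeta1 and 13.6, 14.1 and 12.3 FPKM in controls, without overlap, a change of -0.40 with SE 0.10 (limma adjusted p = 0.0387). Its adjusted p was 0.104 without TGFbeta1 replicate 1 or TGFbeta1 replicate 2, 0.108 without control replicate 1 and 0.107 without control replicate 2, and all 3 other scalings ended the call. The second-set values of RFC3 were 17.3, 19.7 and 16.4 FPKM in libraries labelled TGFbeta1 and 16.7, 17.0 and 16.7 FPKM in controls. Those of RFC2 were 18.2, 16.8 and 24.9 FPKM in libraries labelled TGFbeta1 and 20.1, 19.9 and 12.4 FPKM in controls, so both overlapped. The loader's large subunit RFC1 and its small subunits RFC4 and RFC5 had first-set changes of 0.12, -0.14 and -0.25, and none passed. RFC4 lay above all second-set controls in the libraries labelled TGFbeta1, at 42.9, 36.4 and 37.1 FPKM against 32.7, 33.8 and 31.9 FPKM in controls (limma unadjusted p = 0.0245, adjusted p = 0.368). RPA1, RPA2 and RPA3, which coat single-stranded DNA, had first-set changes of -0.22 to -0.14 and second-set changes of -0.15 to 0.06, with no call.

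None of the 12 genes of Okazaki fragment maturation, nucleotide supply and G1/S control passed in either set. RNASEH2A, the catalytic subunit of the enzyme that removes RNA from DNA, had 35.4, 35.5 and 30.1 FPKM with TGFbeta1 in the first set, below controls at 41.3, 38.8 and 44.8 FPKM (limma adjusted p = 0.0827). Its levels in the second set were 15.4, 31.4 and 34.4 FPKM in libraries labelled TGFbeta1 and 13.0, 19.1 and 18.7 FPKM in controls, a change of 0.59 with an interval from -0.21 to 1.39. Replicate 4 of each label was lowest in its group, and without TGFbeta1 replicate 4 the difference between the sets passed at 1.24 (limma adjusted p = 0.006). LIG1, the ligase that joins the fragments, was uneven in the first set, with 12.5, 5.72 and 13.0 FPKM with TGFbeta1 and 8.67, 6.08 and 10.5 FPKM in controls. In the second set it was lower in every library labelled TGFbeta1, at 3.25, 3.86 and 2.94 FPKM against 5.32, 6.29 and 5.12 FPKM in controls. That change was -0.60 with an interval from -0.89 to -0.31 (limma unadjusted p = 0.00244, adjusted p = 0.160). The difference between the sets, -0.83, passed only without TGFbeta1 replicate 2, at -1.18 (-1.175, limma adjusted p = 0.0175), among the left-out libraries. FEN1, which trims the flaps, had a first-set change of 0.03 (0.025) and a second-set change of 0.04 (0.045).

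RRM2, the regulated subunit of ribonucleotide reductase, had 70.5, 66.4 and 79.6 FPKM with TGFbeta1 in the first set, just below controls at 79.7, 88.3 and 102 FPKM (limma adjusted p = 0.122). It had the most positive second-set change, 0.66, with 13.2, 12.3 and 26.7 FPKM in libraries labelled TGFbeta1 and 8.61, 12.03 and 9.62 FPKM in controls. Without TGFbeta1 replicate 6, the highest library, that change was 0.32 (limma adjusted p = 0.501). RRM1, TYMS, TK1 and DUT, which make or salvage deoxynucleotides or keep uracil out of DNA, had first-set changes between -0.10 and 0.10 and second-set changes between -0.18 and -0.03. TK1 held the only transcript of these genes to pass in the second set. The transcript TK1-203 had 0.544, 0.331 and 0.807 FPKM in libraries labelled TGFbeta1, against 7.25, 7.09 and 11.0 FPKM in controls, a log2 change of -2.58 (limma adjusted p = 0.0337 over 20392 transcripts, of which 0.221% were called). TK1-201 had a positive change that did not pass, with 11.2, 14.6 and 17.4 FPKM in libraries labelled TGFbeta1 and 8.05, 6.92 and 4.90 FPKM in controls (limma adjusted p = 0.424). The sum of TK1 had 11.7, 14.9 and 18.2 FPKM in libraries labelled TGFbeta1 and 15.3, 14.0 and 15.9 FPKM in controls, so the groups overlapped. In the authors' deposited table TK1-203 has a log2 fold change of -2.58, a p of 0.000326 and a q of 0.137. The same transcript is named TK1-002 in the first set. There it had 5.15, 1.42 and 5.84 FPKM with TGFbeta1 and 1.45, 4.06 and 1.53 FPKM in controls. That first-set change was positive, 0.57, and did not pass (limma adjusted p = 0.582).

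E2F1, the activator whose release drives G1/S transcription, had the most negative first-set change of the 50 and did not pass. It had 1.92, 2.56 and 5.89 FPKM with TGFbeta1 and 7.70, 2.95 and 7.61 FPKM in controls, and its change of -0.68 had an interval from -1.80 to 0.44 (limma adjusted p = 0.341). The groups overlapped through TGFbeta1 replicate 3 and control replicate 2, and the change was -1.05 (-1.048) without the first of these and -1.06 without the second. Without TGFbeta1 replicate 1 the change was -0.43 (-0.428). No fit with a library left out passed (limma adjusted p from 0.156 to 0.608). E2F1 in the second set was higher in every library labelled TGFbeta1, at 4.87, 6.12 and 5.70 FPKM against 4.06, 4.82 and 4.45 FPKM in controls (change 0.27, limma unadjusted p = 0.0453, adjusted p = 0.432). CDC25A, the phosphatase that activates CDK2, had 6.44, 7.52 and 9.10 FPKM with TGFbeta1 and 10.1, 8.98 and 10.5 FPKM in controls of the first set (limma adjusted p = 0.145). Second-set levels of CDC25A were 5.92, 6.51 and 4.91 FPKM in libraries labelled TGFbeta1 and 5.28, 5.92 and 4.95 FPKM in controls. CCNE1 and CCNE2, the cyclin E genes, had first-set changes of 0.04 and -0.12.

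Of the genes that supply chromatin behind the fork, CHAF1B alone passed in the first set. This subunit of the assembly factor CAF-1 had 5.99, 6.14 and 5.95 FPKM with TGFbeta1, against 7.16, 7.48 and 7.55 FPKM in controls, without overlap. The change was -0.26 with SE 0.07 (limma adjusted p = 0.0491), the weakest of the 14 calls, and the adjusted p was between 0.0811 and 0.126 with each of the 6 libraries left out in turn. It also missed with every other scaling and filter tried. The second set had 5.53, 5.84 and 5.46 FPKM in libraries labelled TGFbeta1 and 5.30, 5.62 and 5.26 FPKM in controls. SLBP, which binds histone mRNA, had 26.7, 24.1 and 29.6 FPKM with TGFbeta1 and 18.2, 31.8 and 36.7 FPKM in controls of the first set. Its second-set values were 30.1, 25.0 and 27.1 FPKM in libraries labelled TGFbeta1 and 30.7, 33.1 and 26.8 FPKM in controls, and the groups overlapped in both sets. UHRF1, which helps copy DNA methylation, and CHAF1A, the large CAF-1 subunit, had first-set changes of -0.10 (-0.095) and -0.25.

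**Figure D4:**
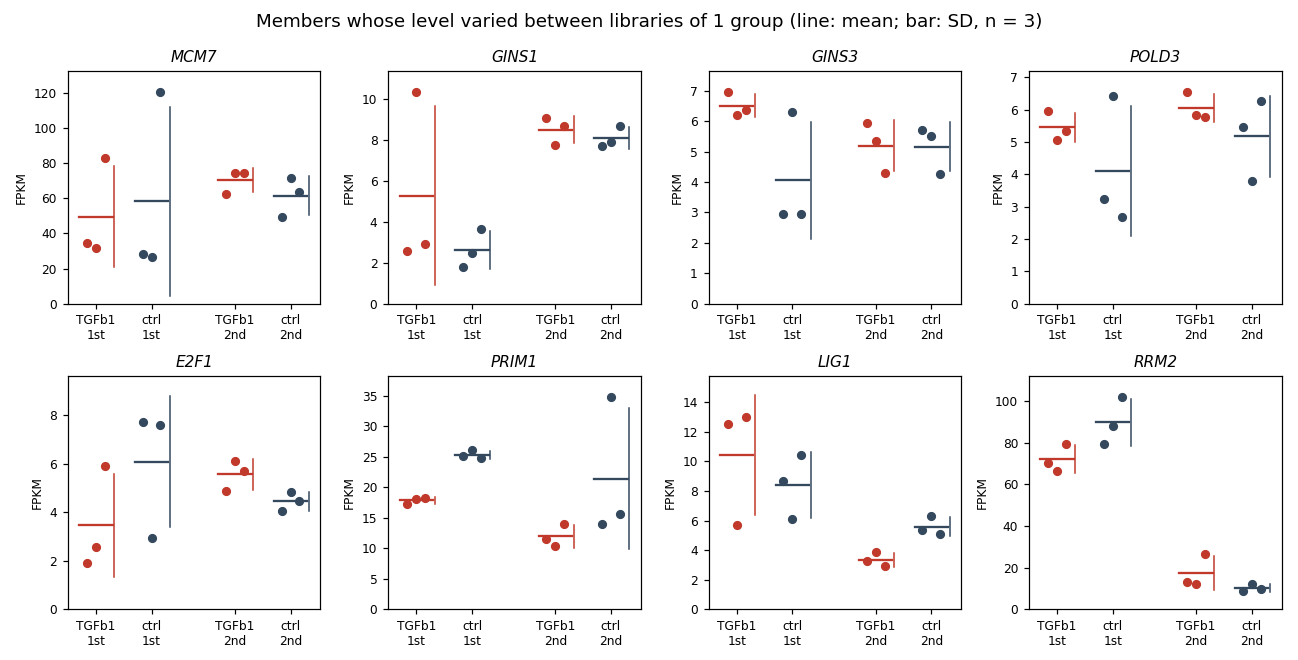
FPKM in each library for 8 genes in which 1 or more libraries stood apart from their group or the sets differed. Points are libraries, horizontal lines are group means and vertical bars 1 SD (n = 3), with TGFbeta1 left of control in each set. MCM7 reaches 82.7 and 120.4 FPKM in replicate 3 of TGFbeta1 and control, and PRIM1 reaches 34.8 FPKM in control replicate 5.

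At the level of transcripts, 6 of 96 tested in the first set passed and all 6 were lower with TGFbeta1 (limma over 18113 transcripts, 5.54% called). They were CDT1-001, MCM2-001, MCM5-002, MCM6-001, POLD2-201 and PRIM1-002. MCM5-002 was listed at 0, 1.32 and 0 FPKM with TGFbeta1, against 6.01, 4.32 and 3.57 FPKM in controls, a change of -2.07 (limma adjusted p = 0.0457). The main transcript, MCM5-001, had 13.3, 13.6 and 13.4 FPKM with TGFbeta1 and 15.3, 17.7 and 20.6 FPKM in controls, lower in all 3 libraries but not called (limma adjusted p = 0.196).

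The 14 genes that fell in the first set did not share a direction in the second. There 8 of them were negative and 6 positive, between -0.69 and 0.19, with a median of -0.03.

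Outside the 50, 88 further genes of replication and the cell cycle were examined as 5 lists, and 3 rose and 7 fell in the first set (3.41% and 7.95%, beside 9.00% and 11.9% of all genes). Their median change was -0.16. In licensing and origin firing 4 of 24 fell, ORC4, ORC5, MCMBP and TIPIN, and ORC5, a core subunit of the origin recognition complex, was at 18.5 ± 0.513 FPKM with TGFbeta1 and 28.0 ± 2.38 FPKM in controls (SD, n = 3 each). In the list of E2F, RB and G1/S kinase genes CDK6, the cyclin D partner, rose with 26.3, 22.2 and 19.5 FPKM with TGFbeta1 against 15.0, 12.6 and 14.6 FPKM in controls (limma adjusted p = 0.0229), while RBL1 fell. Nucleotide supply had 2 falls of 12, GMPS and NME1, and replication-coupled chromatin and repair 2 rises of 14, RBBP4 and RBBP7. None of the 14 G2 and mitosis genes passed, with 4 at an unadjusted p under 0.05, as had 35.0% of all genes tested. In the second set none of the 88 passed with limma, and 12 had an unadjusted p under 0.05, where 11.2% of all genes did. There 13 of the 14 G2 and mitosis genes had a positive change, with a median of 0.14 (0.135), and 5 had an unadjusted p under 0.05, while over all 10579 genes 5285 had a positive change and the median was 0.00.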

How the data were processed

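RNA of 12 MCF-12A libraries was analysed from 2 deposited tables. The authors deposited FPKM per protein-coding transcript. The headers name FPKM only for the second set's group means, so the first set's unit is inferred from its values. The second table also holds the authors' deposited log2 group means and changes, fold changes, and p-values and q-values, used only where their table is named. The fold changes that are not on the log2 scale were not used. Tools in the submitters' processing notes are HISAT2 2.0.4, StringTie 1.2.3, FastQC and cutadapt, with build hg19. Neither settings nor strandedness were found in the labels or headers.

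The tables list 44112 and 29204 transcripts, with lowest means of 0.025 and 0.250 FPKM, so changes were taken within a table. FPKM divides by a library total, so abundant genes that change shift the others. Transcripts were summed per symbol (163 symbols of the first table were renamed through shared transcripts; 181 and 136 transcripts belong to the 50 genes). Genes with a mean of at least 1 FPKM entered a limma fit (limma 3.58.1, R 4.3.3) on log2(FPKM + 1), a scale that understates changes of low genes. The fit used empirical Bayes with a trend, was two-sided and was adjusted by Benjamini-Hochberg over all genes tested at 0.05. The difference between the sets was an interaction term over all 12 libraries. Tables and plots used Python 3.11.15, pandas 2.3.3, numpy 2.4.6 and matplotlib 3.10.9. The procedure was tested on simulated data, where recovery was required only of changes larger than the gene changes called among the 50.

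Deviations of same-numbered libraries of the groups correlated only weakly, so no block was used. Those correlations were 0.007 to 0.046, all positive, against -0.053 to 0.014 for pairs with different numbers. The members and lists were chosen with earlier results of these data known. Values in every library are given for genes that passed a test, for the 3 largest rises and falls of each set, and for the highest gene of each role. A few others were named after their values were seen. The settings varied were the pseudocount (0.1), the filter (none, or 5 FPKM), the scaling (3 others), limma without trend or with robust variance, transcripts in both tables, a replicate block, and each library left out. Where that left 2 libraries in a group, limma pooled the spread over the groups. Some genes of the treatment check and the marker lists are not reported here.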

Additional observations from a re-analysis of the deposited data

Results flagged for a closer look

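For 10 of the 50 genes the limma test of the difference itself passed (second-set change minus first-set change with TGFbeta1, log2 scale). Over all 10548 genes tested 13.6% passed, 7.56% with a positive difference. Of the 10 calls, 2 were left with an equal sum per library and 3 with quantile normalisation. Only MCM6 and POLE2 kept the call in every alternative in which each was tested. The difference was 0.48 for CDT1 (adjusted p = 0.0283), 0.59 for MCM4 (0.0319), 0.55 for MCM5 (0.021) and 0.51 for MCM6 (0.00549). It was 0.66 for MCM10 (adjusted p = 0.0451), 0.49 for CDC45 (0.0437), 0.43 for POLA1 (0.0473) and 0.63 for POLE2 (0.00833). It was 0.57 for PCNA (adjusted p = 0.0278) and 0.48 for RFC3 (0.0401). The 4 genes given as a check of the treatment rose in the first set and did not pass in the second. Their differences between the sets passed the same test and were negative. They were -1.425 for SMAD7 (limma adjusted p = 0.000241), -3.679 for ITGB6 (1.38e-05), -3.654 for TGFBI (0.000404) and -3.696 for FN1 (2.02e-06). The part of this in the differences of the 10 replication genes was not tested.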

How the results depend on the processing

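No change or difference that passed its test changed sign in any alternative. Signs were followed only for genes that passed a test, the 3 largest rises and falls of each set, and each role's highest gene. Among their values that did not pass, those of 9 genes changed sign, each without passing there. Signs of the remaining replication genes were not followed. With an equal sum per library GINS3 in the second set was -0.015 and SLBP in the first 0.032, and SLBP was 0.012 with quantile normalisation. With transcripts in both tables POLD1 was 0.093 in the second set, and the differences between the sets were 0.471 for POLD1 and 0.021 for SLBP. With 1 library left out the first-set changes ran from -0.096 to 0.171 for ORC6 and -0.345 to 0.142 for SLBP. The second-set changes ran from -0.074 to 0.058 for CDT1, -0.085 to 0.017 for CDC45, -0.104 to 0.116 for GINS3 and -0.023 to 0.307 for RFC2. The differences between the sets ran from -0.441 to 0.19 for PRIM1 (positive without control replicate 5), -0.495 to 0.01 for POLD3 and -0.278 to 0.21 for SLBP. The 14 falls of the first set became 5 with the replicate block and 8 to 11 with 1 library left out, with 0 to 2 rises (the 2, GINS3 and POLD3, without control replicate 2). The median change in the first set was -0.14 (-0.139) with an equal sum per library and -0.30 to -0.20 (-0.302 to -0.195) with 1 library left out. Over all genes the first-set rises were 625 with a minimum of 5 FPKM, 552 with the block and 615 to 935 with a library left out, and the falls 659 with the block and 722 to 1095 with a library left out. In the second set the replication genes had 0 rises and 0 falls in all 16 alternatives, with a median of 0.00 (0.004) to 0.04 with a library left out. Second-set rises over all genes were 10 with an equal sum, 11 without trend, 0 with the block and 0 to 13 with a library left out, and falls were 7, 9, 0 and 0 to 10. The 10 differences between the sets became 6 with the median of ratios or with transcripts in both tables, 2 with an equal sum, 3 with quantile normalisation, 4 with the block and 3 to 8 with a library left out, of which 3 to 7 are among the 10. The calls outside the 10 were CDC6, GINS3, RFC4, RNASEH2A and LIG1, each with 1 library left out. Of the 4 under the block, MCM6 and POLE2 are shared with the 10, and LIG1 and RNASEH2A are added. The block took replicate numbers as pairs, which the labels do not state, and deviations of same-numbered libraries correlated at 0.007 to 0.017 in the first set and 0.017 to 0.046 in the second. Under it the adjusted p of CDT1, POLA1 and POLD2 was 0.0507, 0.0503 and 0.054. Other scalings moved the median of all genes by less than 0.1, but an equal sum turned its sign in the first set (0.021 against -0.055). Where calls were lost the cause was not tested. Depth is unknown, so counting error is not covered.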
